A study of Arabidopsis thaliana with 12 samples.

Results

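The 4 genes described here belong to the endoplasmic reticulum stress response and to the vesicle coat that carries cargo out of that compartment: BZIP60 (AT1G42990), BIP1 (AT5G28540), ERDJ3B (AT3G62600, ATERDJ3B in the reference) and AT1G18830, listed with the synonym SEC31A in the reference. They were 4 of the 17481 probe sets that the array annotation links to a named gene, each with 1 probe set linked to that gene alone. The genes were selected on earlier results from the same arrays in root, where AT1G18830 had the largest rise of all and the other 3 had been described as genes of the unfolded protein response. The root differences of the 4 genes are therefore given as a description with no test. Their organ differences share the root arrays with that choice and are also given as a description, so that the shoot comparison is the one tested for them.

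Proteins that enter the secretory pathway fold in the endoplasmic reticulum, and a surplus of unfolded protein there starts the unfolded protein response. In Arabidopsis BZIP60 is a factor anchored in the membrane until the kinase and nuclease IRE1 splices its transcript, after which the protein lacks the anchor and acts in the nucleus on stress genes. BIP1 is an Hsp70 chaperone of the lumen, and ERDJ3B is a J-domain protein that serves such chaperones. Folded cargo leaves in vesicles coated by COPII, in which SAR1 starts assembly, SEC23 and SEC24 form the inner layer, and SEC13 and SEC31 form the outer one. The arrays measured total transcript signal, and the splicing state of BZIP60 was not analysed here.

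Seedlings of all groups were 10 days old and had been grown on vertical plates with 1% sucrose and 1% agar. They had 3 days of stratification first, and then 16 h of light at 20 °C. They belonged to the accession Wassilewskija-4, which is the wild type, or to a line labelled aladin, after a gene of the nuclear pore complex. The allele, the site of the mutation and the number of plants pooled per array were not given in the sources used here. Roots and shoots were separated, which gave 4 groups of 3 biological replicates on 12 Affymetrix Arabidopsis Gene 1.0 ST arrays. Values are RMA signals on the log2 scale with array medians between 5.86 and 6.0, and their precision is set by having 3 arrays per group. The probe set of ALADIN (AT3G56900) went against a loss of its transcript. In root it rose by 4.29 with the aladin label (SE 0.07, limma adjusted p = 1.9e-11), and the shoot rise was 4.65 (SE 0.07, adjusted p = 7.6e-12). Directions are therefore those of libraries with this label relative to libraries labelled as the wild type. In the wild type, all 4 measured green-tissue markers and all 3 stomatal markers were lower in root than in shoot, and both measured root hair markers were higher, as the organ labels say. PYK10, the only measured gene of the list made for root endodermis and stele, had 2 probe sets. The one linked to it alone was higher in root (1.69), and the other, also linked to AT3G03870, did not pass (-0.28). In bulk organs, fewer cells of a type and less RNA per cell cannot be told apart.

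AT1G18830 was low in 3 groups and high in the fourth. In wild-type root its signal was 4.57, 4.79 and 4.42 (mean 4.59 ± 0.19, SD, n = 3). In the root libraries labelled aladin it was 9.06, 9.44 and 9.16 (9.22 ± 0.20, SD, n = 3). All 3 of these arrays lay far above every other array of the series. The root difference was 4.63 log2 units (SE 0.13, 24.8-fold), rank 1 among the 17481 probe sets, and this is the value that chose the gene. The deposited values carry no detection call, so it is not known whether the wild-type level is above background, and the fold holds for the signals as deposited. Leaving out any one array kept it between 4.52 and 4.73.

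In shoot the signal of AT1G18830 was 4.83, 4.65 and 4.66 in the wild type (4.71 ± 0.10, SD, n = 3). In the shoot libraries labelled aladin it was 4.77, 4.87 and 4.54 (4.73 ± 0.17, SD, n = 3). The shoot groups overlapped, and no change was detected (log2 difference 0.01, SE 0.13, 95% interval -0.27 to 0.30, adjusted p = 0.971). The upper end of this interval lay far below the root difference, and the root difference exceeded the shoot difference by 4.62 (SE 0.18), a value that holds the root difference and was not tested. The wild-type organs also overlapped for this gene (root minus shoot -0.12, SE 0.13). The order of the groups was therefore the root libraries labelled aladin first, with the other 3 groups not separated beyond their spread.

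**Figure D1:**
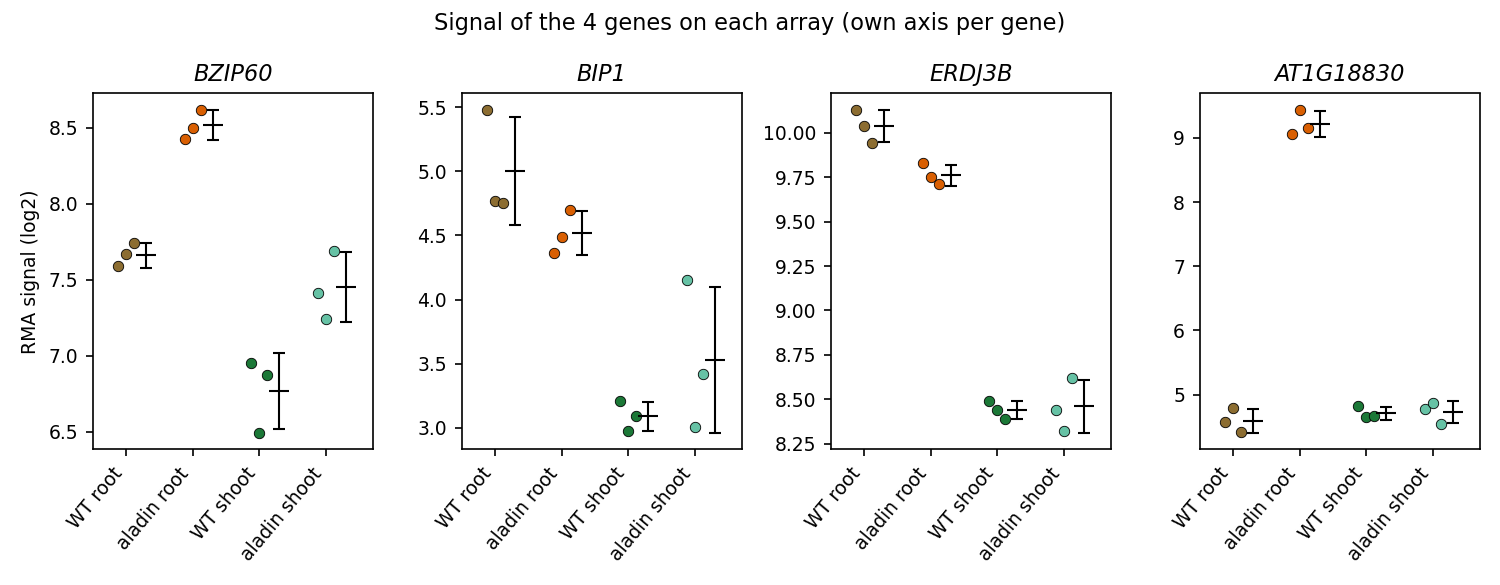
Signal of the 4 genes on each of the 12 arrays (log2 RMA signal, a separate axis for each gene); points are arrays, and the mark beside them is the mean with its SD (n = 3). AT1G18830 lies between 9.06 and 9.44 in the root libraries labelled aladin and between 4.42 and 4.87 on the other arrays, while BZIP60 is higher with the aladin label in both organs.

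BZIP60, the transcription factor of the group, was higher in the libraries labelled aladin in both organs. In wild-type root its signal was 7.59, 7.67 and 7.74 (7.66 ± 0.08, SD, n = 3). In the root libraries labelled aladin it was 8.43, 8.50 and 8.62 (8.52 ± 0.10, SD, n = 3). The root groups did not overlap, and the difference was 0.85 (SE 0.14, 1.81-fold), rank 344 from the top among all probe sets.

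In shoot BZIP60 was at 6.95, 6.49 and 6.87 in the wild type (6.77 ± 0.25, SD, n = 3). It was at 7.41, 7.24 and 7.69 in the libraries labelled aladin (7.45 ± 0.23, SD, n = 3), so all 3 lay above the highest wild-type array. The rise of 0.68 (SE 0.14, 1.60-fold, 95% interval 0.38 to 0.98) passed the test by limma (adjusted p = 0.0238). The replicate SDs in shoot were larger than those in root, whereas limma used 1 spread for all 4 groups, and with the shoot arrays fitted alone the adjusted p was 0.177. The call also ended when wild-type shoot replicate 2 was left out (0.54, adjusted p = 0.0640) or when replicate 1 (0.70, adjusted p = 0.0569) or replicate 3 (0.56, adjusted p = 0.0717) of the shoot libraries labelled aladin was. The root difference exceeded that in shoot by 0.18 (SE 0.19), which is within its error and was not tested.

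BZIP60 was also higher in wild-type root than in wild-type shoot, by 0.89 (SE 0.14, 1.86-fold). From the highest group to the lowest, its order was aladin root, wild-type root, aladin shoot and wild-type shoot. The neighbours wild-type root and aladin shoot overlapped, and the other neighbouring pairs did not.

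BIP1, the chaperone, had a low signal that varied between arrays. In wild-type root it was 5.48, 4.77 and 4.75 (5.0 ± 0.42, SD, n = 3). In the root libraries labelled aladin it was 4.36, 4.49 and 4.70 (4.52 ± 0.17, SD, n = 3). The root groups did not overlap, with the libraries labelled aladin lower, and the difference was -0.48 with a large error (SE 0.26). It went to -0.24 without wild-type root replicate 1, the highest BIP1 array.

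In shoot BIP1 was at 3.21, 2.98 and 3.09 in the wild type (3.09 ± 0.11, SD, n = 3). It was at 4.15, 3.01 and 3.42 in the libraries labelled aladin (3.53 ± 0.57, SD, n = 3), where replicate 1 stood above the rest and replicate 2 lay among the wild-type arrays. No change was detected (0.43, SE 0.26, 95% interval -0.13 to 1.00, adjusted p = 0.424), and without aladin shoot replicate 1 the difference was 0.12 (adjusted p = 0.834). On 5 of the 12 arrays, all from shoot, BIP1 was below 4.1, the 25th percentile of the mean signals of all probe sets, where a level above background is not shown. Arabidopsis has close homologues of BIP1, and how far the probes tell them apart was not given in the sources used here. BIP2 and BIP3 had no linked probe set and were not analysed here.

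The BIP1 signal of wild-type root exceeded that of wild-type shoot by 1.91 (SE 0.26), with no overlap, and no fold is given because the shoot arrays lay below 4.1. In the libraries labelled aladin the organ difference was 0.99 (SE 0.26). The groups followed the order wild-type root, aladin root, aladin shoot and wild-type shoot, and the shoot groups overlapped.

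ERDJ3B, the J-domain partner of the Hsp70 chaperones, varied little between replicates. In wild-type root it was at 10.13, 10.04 and 9.94 (10.04 ± 0.09, SD, n = 3). In the root libraries labelled aladin it was at 9.83, 9.75 and 9.71 (9.76 ± 0.06, SD, n = 3), lower on all 3 arrays than on any wild-type root array. The root difference was -0.27 (SE 0.09), opposite in sign to that of BZIP60 and given as a description with no test.

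In shoot ERDJ3B was at 8.49, 8.44 and 8.39 in the wild type (8.44 ± 0.05, SD, n = 3). It was at 8.44, 8.32 and 8.62 in the libraries labelled aladin (8.46 ± 0.15, SD, n = 3), and the groups overlapped. No change was detected (0.02, SE 0.09, 95% interval -0.18 to 0.22, adjusted p = 0.942). Wild-type root exceeded wild-type shoot by 1.60 (SE 0.09, 3.02-fold). The order was wild-type root, aladin root and then both shoot groups, which were not separated.

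Of the 4 genes, BZIP60 alone passed in shoot, where 2.96% of all linked probe sets passed (1.49% higher and 1.47% lower). The shoot groups did not overlap for BZIP60 alone, against 19.0% of all probe sets. Between wild-type organs, 3 of the 4 genes (BZIP60, BIP1 and ERDJ3B) were higher in root, a description with no call. Of all probe sets, 58.8% passed in either direction, 31.9% as higher and 26.9% as lower. Among the 4 genes, BZIP60, BIP1 and ERDJ3B alone had organ groups that did not overlap, as was so for 64.3% of all probe sets. Nothing is read from these counts because the wild-type root arrays were also used to choose the genes. In root the groups of all 4 genes were apart, against 31.7% of all probe sets, and nothing is read from this because root values chose the genes.

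**Figure D2:**
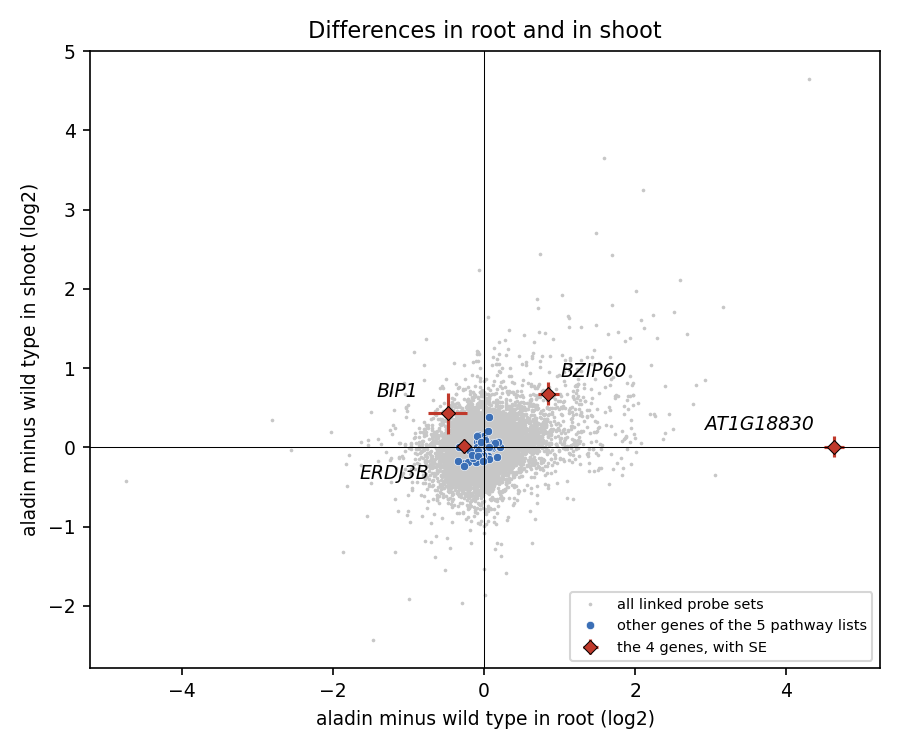
Difference between libraries labelled aladin and wild type in root (horizontal, log2) and in shoot (vertical, log2); each grey point is a linked probe set, blue points are other listed pathway genes and red diamonds the 4 genes with their SE. AT1G18830 lies at 4.63 in root and 0.01 in shoot, BZIP60 is positive on both axes, and the blue points lie between -0.34 and 0.21 in root and between -0.23 and 0.38 in shoot.

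Few other genes of these pathways passed between the genotypes. Across 5 lists for stress signalling, folding, translocation and degradation, the COPII coat, and the COPI coat with retrieval and membrane fusion, 117 loci other than the 4 genes were listed and 55 had a linked probe set, 56 probe sets in all. In root 1 of the 56 passed, as lower, and 0 as higher, against 4.63% higher, 3.01% lower and 7.64% in either direction over all probe sets. The median root difference of the 56 was -0.05, beside -0.04 for all probe sets. Unadjusted, 5 of the 56 had a p under 0.05 in root, against 20.1% of all probe sets. In shoot 0 of the 56 passed by limma, against 2.96% of all, and 4 had an unadjusted p under 0.05, against 17.5% of all. The median shoot difference was -0.03, beside -0.02 for all probe sets.

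The single gene past the threshold in root was CRT1b, a calreticulin that binds calcium and glycoproteins in the lumen. It went from 10.95 ± 0.06 (SD, n = 3) in wild-type root to 10.62 ± 0.09 (SD, n = 3) in the libraries labelled aladin, a fall of the same direction as in ERDJ3B. CRT1b fell by 0.33 (SE 0.08, adjusted p = 0.0207), but the call did not hold with fewer arrays. Without replicate 1 or replicate 3 of wild-type root the CRT1b difference was -0.30 and -0.33 (adjusted p = 0.0916 and 0.0739). Without replicate 1 or replicate 2 of the root libraries labelled aladin it was -0.28 and -0.34 (adjusted p = 0.0819 and 0.0623), so that its size stayed near the full value. In shoot CRT1b was at 9.41 in both groups, and no change was detected (adjusted p = 0.993). The other 4 measured folding genes, ATERDJ2A, PDIL5-1, AT4G16660 and AT5G07340, had root differences from -0.25 to 0.05, and none passed.

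Stress signalling was measured through 4 further genes of 12 listed. BZIP28, a membrane-bound factor that is cut in the Golgi under stress, had a root difference of 0.21 (SE 0.07, adjusted p = 0.108) with groups that did not overlap. Its shoot difference was 0.00 in size (SE 0.07, adjusted p = 0.993). BZIP17, a related factor, had differences of 0.04 in both organs (SE 0.10, adjusted p = 0.906 in each). S1P, a protease that cuts such factors, and AT4G20310 had root differences of -0.09 and -0.08. None of these 4 genes passed in root or shoot, BZIP28 having an unadjusted p under 0.05 in root, and the other 8 listed loci, IRE1A and NAC103 among them, were not analysed here.

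The COPII coat was measured most fully, with 15 of 22 listed loci beside AT1G18830, and none of them passed in root or shoot by limma. None had an unadjusted p under 0.05 in either organ. Root differences ran from -0.16 to 0.06 and shoot differences from -0.15 to 0.14. AT3G63460, to which the reference gives the synonym SEC31B, was at 12.04 ± 0.03 in wild-type root and 11.94 ± 0.10 in root libraries labelled aladin (SD, n = 3 each), a difference of -0.10 (SE 0.08, adjusted p = 0.528). In shoot it was at 11.33 ± 0.02 and 11.31 ± 0.05 (SD, n = 3 each), a difference of -0.02 (SE 0.08, adjusted p = 0.920). The groups of this other listed SEC31 locus overlapped in each organ.

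Among the 11 measured loci for translocation, glycosylation and degradation, none passed in root or shoot (root -0.09 to 0.18, shoot -0.11 to 0.38). The highest shoot difference was that of AT1G78720 (SE 0.11, adjusted p = 0.0907). The 20 measured loci of the COPI coat, retrieval and membrane fusion, with 21 probe sets, also held none past the threshold in either organ (root -0.34 to 0.17, shoot -0.23 to 0.21). Unadjusted, 2 of these 21 had a p under 0.05 in root and 3 in shoot, against the 20.1% and 17.5% of all probe sets.

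Between wild-type organs, 43 of the 56 listed probe sets were higher in root, 3 were lower and 10 did not pass, against 31.9% higher and 26.9% lower over all probe sets. Their median was 0.40, beside -0.03 for all, and the counts by list stand against the same shares. Of 29 listed folding loci other than BIP1 and ERDJ3B, only 5 were measured, and these 5 were all higher in root (median 0.97). CRT1b was at 1.54 (SE 0.08, limma adjusted p = 4.1e-09) and AT4G16660 at 1.26 (SE 0.07, adjusted p = 2.1e-08), next to ERDJ3B at 1.60 and BIP1 at 1.91. PDIL5-1, a protein disulfide isomerase-like gene (0.97), AT5G07340 (0.42) and ATERDJ2A (0.24) made up the rest. BZIP17 (0.68), S1P (0.40) and BZIP28 (0.31) were higher in root as BZIP60 was, and AT4G20310 (0.07) did not pass.

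For translocation and degradation, 8 of 11 probe sets were higher in root. They were AT1G29310 (1.42), DER1, a derlin (1.08), AT2G34250 (0.87), DER2.2 (0.73), OS9 (0.63), AT4G29960 (0.57), DER2.1 (0.50) and UBC32 (0.44), while AT1G78720 was lower in root by 0.42 on the log2 scale (-0.42). UBC33 and UBC34 did not pass. In the COPII list, 11 of 15 probe sets other than AT1G18830 were higher in root and 1 was lower. The organ difference of AT1G18830 was -0.12, given as a description with no p. The 11 were AT1G05520, AT3G63460, AT2G30050, AT4G32640, AT3G23660, CEF, AT4G01810, AT5G47490, AT4G14160, AT2G27460 and AT5G50550, whose probe set is also linked to AT5G50650, and they ran from 0.27 to 0.82. AT2G21630 was lower in root (-0.29).

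In the COPI, retrieval and fusion list, 16 of 21 probe sets were higher in root, from 0.23 to 0.87. They covered AT1G30630, AT4G31490, AT1G52360, MAG2, AT2G34840, AT2G21390, AT1G79990 with 2 probe sets, AT5G05010, AT4G31480, ATRER1C1, AT1G62020, AT4G34450, ATRER1A, SEC22 and AtSec20. AT1G54110 was lower in root (-0.40), and 4 did not pass.

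**Figure D3:**
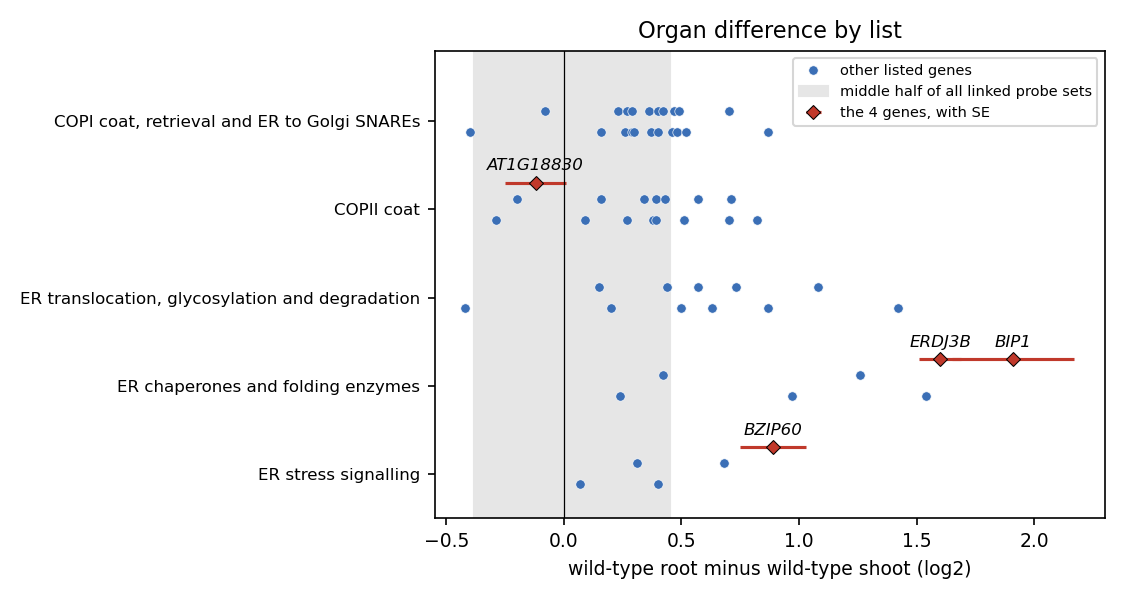
Difference between wild-type root and wild-type shoot (log2) for the listed genes (blue) and the 4 genes (red, with SE), by list; the grey band spans the quartiles of all linked probe sets, -0.38 to 0.45. ERDJ3B and BIP1 lie at 1.60 and 1.91 beyond their list, whereas AT1G18830 lies at -0.12, below most of the COPII list.

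Markers of other cell types are given beside these values, and no association with them was tested. Of the 4 measured green-tissue markers, 1 rose in root, RCA, Rubisco activase, from 8.67 to 9.28 (0.61, SE 0.10, adjusted p = 0.00306). LHCB4.2, a light-harvesting protein, had a difference of the opposite sign, from 5.09 to 4.56 (-0.53, SE 0.17, adjusted p = 0.0916), and PORB (0.56) and LHCB4.1 (0.13) did not pass. The summed signal of the 4, in which RCA weighs most, was 9.28 to 9.37 on the log2 scale in wild-type root and 9.59 to 10.08 in root libraries labelled aladin. In shoot the sum was 13.30 to 13.39 in the wild type and 13.25 to 13.33 with the aladin label. AT1G18830 was at 4.71 in wild-type shoot and 4.59 in wild-type root, and BZIP60 was at 6.77 and 7.66. BIP1 and ERDJ3B, with lower signals in wild-type shoot, also had lower signals in the root libraries labelled aladin. The part of green-tissue signal in the root differences of the 4 genes was not tested.

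The root hair markers, 2 of 6 measured, gave sums of 8.10 to 8.76 in wild-type root and 8.05 to 8.20 in root libraries labelled aladin, and neither passed. Of 3 measured stomatal markers, SPCH (-0.82, adjusted p = 0.0369) and MUTE (-0.93, adjusted p = 0.0437) were lower in shoot libraries labelled aladin, beside the shoot rise of BZIP60. SPCH kept its call in 9 of 21 alternative settings and MUTE in 5 of 20, and their part in the BZIP60 difference was not tested. The stomatal sum was 9.83 to 10.11 in wild-type shoot and 9.28 to 9.39 in shoot libraries labelled aladin, while FAMA, named FMA in the reference, did not pass. The stomatal sum in root overlapped between the genotypes (4.90 to 5.26 and 4.84 to 5.38). Of the list made for root endodermis and stele, PYK10 alone was measured, with 2 probe sets, and neither passed between the genotypes in either organ. The probe set linked to PYK10 alone was also high in wild-type shoot (12.12), and nothing is read from PYK10 about those cell types. Their sums were 13.80 to 13.82 in wild-type root and 13.77 to 13.80 in root libraries labelled aladin. The sum follows the probe set linked to PYK10 alone (13.81 in wild-type root, root difference -0.03). The other, also linked to AT3G03870, was low (3.98 in wild-type root) and differed by 0.41 in root (SE 0.18, limma adjusted p = 0.237).

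The genes whose signal was most like each of the 4 were found by Pearson's r over the 12 arrays, with every value centred on the mean of its organ. These r are descriptions, since the arrays share the difference between the labels, and they carry no p. The pattern of AT1G18830 was most like that of AT5G28630 (r = 0.986), AT1G67000 (0.984) and AT1G69890 (0.984), whose root differences were 1.25, 1.86 and 1.95 and whose shoot differences were -0.11, 0.12 and 0.25. All 3 root differences were smaller than that of AT1G18830. Its least like gene was AT3G56891 (-0.990), with a root difference of -0.92. The locus number of AT3G56891 is close to that of ALADIN, and a part of this position in its values was not tested.

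BZIP60 was most like AT3G58270 (0.977), SAG101, a partner of EDS1 in defence (0.972), and AT1G22930 (0.970), and least like AT4G08280 (-0.983). AT3G58270 differed by 0.95 in root and 0.73 in shoot, close to the 0.85 and 0.68 of BZIP60. BIP1 was most like UGT76E12 (0.886), AT5G48620 (0.883) and AT1G52540 (0.870), and least like AT4G21460 (-0.957). ERDJ3B was most like AT2G21930 (0.925), AT2G22930 (0.923) and DL1B (0.920), and least like AT2G16365 (-0.937). None of the 4 genes was among the 3 likest of another. Centred in this way, BZIP60 had r = 0.726 with AT1G18830, -0.053 with BIP1 and -0.459 with ERDJ3B, and BIP1 had 0.535 with ERDJ3B. AT1G18830 had r = -0.788 with ERDJ3B, the largest in size of the 6 pairs, and -0.450 with BIP1.

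The genes next to AT1G18830 on the chromosome were looked up after its values were seen, with the order taken from RefSeq. Of the 3 nearest genes with a linked probe set on each side, AT1G18810, with 1 gene between, was higher in the libraries labelled aladin in root (0.70, SE 0.12, adjusted p = 0.0031) and in shoot (0.54, SE 0.12, adjusted p = 0.0353). Its root means were 3.05 and 3.76, a low signal, and its shoot means 7.64 and 8.17. The shoot call held in 10 of 21 alternative settings and not in others, among them the fit on shoot arrays alone (adjusted p = 0.171) and the replicate block (0.0660). The other 5 neighbours, AT1G18780, AT1G18773, IQD30, AT1G18850 and AT1G18871, did not pass in either organ, with root differences from -0.40 to 0.05. None of the 6 neighbours of BZIP60, BIP1 or ERDJ3B passed in root or shoot.

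**Figure D4:**
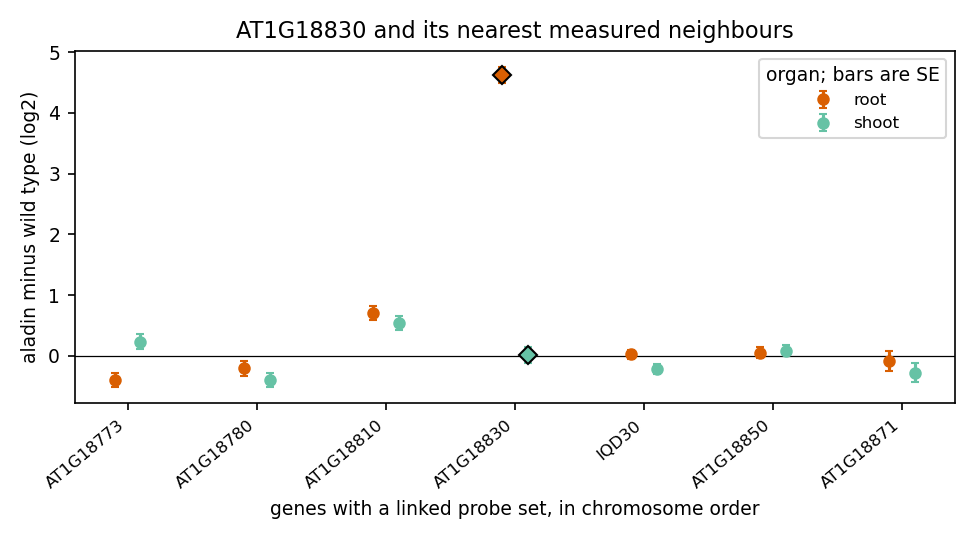
Difference between libraries labelled aladin and wild type (log2, with SE) in root and shoot for AT1G18830 (diamonds) and the 3 nearest genes with a linked probe set on each side, in chromosome order and not to scale. AT1G18830 stands at 4.63 in root and 0.01 in shoot, while the neighbours lie between -0.40 and 0.70 in root and between -0.40 and 0.54 in shoot.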

How the data were processed

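The values are log2 signals as deposited by the authors, and the submitters' processing notes name RMA as the tool. Which program ran it, and whether probes were combined by gene or by exon, was not given in the labels. The table held 38408 probe sets on 12 arrays with no missing value. The supplied array annotation linked probe sets to genes (17481 linked, 16722 to exactly 1 gene), and symbols came from RefSeq TAIR10.1. R 4.3.3 and limma 3.58.1 fitted 4 group means to all arrays (residual degrees of freedom 8, prior 3.67), and p values were adjusted by Benjamini-Hochberg over the 17481 probe sets at a threshold of 0.05. Errors of differences are standard errors from limma, and intervals are 95% intervals from the same fit. The procedure was tested on simulated data in which each gene had 1 spread for all 4 groups. That test does not bear on groups of unequal spread. The members, the lists and the tests were chosen with earlier results of these data known; lists were matched by locus, and loci with no reference symbol were placed in them from general knowledge. Probe sets of 1 gene with identical values on every array (2 cases) were counted once. Named genes were the 4 genes, ALADIN, every listed gene past the threshold in a comparison, and the 3 likest and the least like gene of each of the 4. Chromosome neighbours were added later. A test between wild-type organs was planned for the 4 genes, and its p is not given because it shares the wild-type root arrays with their choice. Replicates are biological per the labels. The p-values set each group difference against the spread between replicates, shared by the 4 groups and moderated by the limma prior. Alternatives changed the prior, the filter on dim probe sets, which probe sets entered, the scaling, array weights, the replicate block, fits per organ and leaving out each array. Figures were drawn with matplotlib 3.10.9.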

Additional observations from a re-analysis of the deposited data

How the results depend on the processing

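The shoot rise of BZIP60 kept its direction under all 21 alternatives, with values from 0.54 to 0.78 when arrays were left out one at a time. It passed in 17 of 21 (adjusted p by limma 0.0042 to 0.177) and did not when shoot was fitted alone (0.68, adjusted p = 0.177) or without 3 of the shoot arrays, as given above. The 21 include the fits without a root array, which left the difference at 0.68 and could change only its error. The shoot results of BIP1, ERDJ3B and AT1G18830 passed under no alternative, and the organ differences of BZIP60, BIP1 and ERDJ3B kept their direction under every one that gave a value. The probe sets past the threshold in root, 1336 of the 17481 linked ones, became 2155 when all 38408 were tested, a larger total. They became 2700 with array weights and 870 to 1415 without 1 array, lowest without aladin root replicate 2. Those in shoot, 518, became 862 with the trend and robust prior, 202 with array weights, 58 with shoot fitted alone and 282 to 460 without 1 array, lowest without wild-type shoot replicate 2. Those between organs, 10279 of the 17481, became 20311 when all 38408 were tested. Listed genes past the threshold in root went from 1 to 3 with array weights and to 0 without any of 4 root arrays, those that ended the call of CRT1b. Without centring, 4 of the 12 likest genes remained named. Deviations from the group means were correlated between same-numbered arrays. Between the genotypes r was 0.10, 0.02 and 0.06 in root and 0.01, -0.04 and 0.00 in shoot. Between root and shoot r was 0.01, -0.06 and 0.08 in the wild type and -0.02, 0.01 and 0.03 with the aladin label. These values do not show pairing. With the replicate block, 1237 genes passed in root, 379 in shoot and 10210 between organs, and BZIP60 in shoot was at 0.68 (adjusted p = 0.0211). BIP1 gave no value with dim probe sets left out, the organ comparison none with 1 organ fitted, and the planned comparison of promoter windows was not run, since no sequence was used here. The deposited signals carry no background measure, which limits the reading of BIP1, of the 9 low arrays of AT1G18830 and of AT1G18810 in root.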
